A study of Mus musculus with 10 samples.

Results

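The transcripts described here are 34 genes that mark macrophages and other leukocytes, measured in cultures of mouse embryonic fibroblasts (MEF). The genes were chosen by name, the brightest probe set by mean over the 10 arrays stood for its gene, and a gene was kept where the mean of at least 1 group reached 4 on the log2 scale. Of the 34 genes, 33 had a probe set of their own and 29 were kept, out of 18193 genes with a probe set and 10623 genes tested in the whole series. Lyn, a kinase of the SRC family, was not analysed here, because no probe set carried its symbol alone. By their highest group mean Fcgr1 (3.68) and Aif1 (3.62) lay just outside the threshold, with Clec7a (3.30) and Itgam (2.55) farther below it. Vav1 (4.16), Cd48 (4.25) and Spi1 (4.34) lay just inside it. Spi1 and Cybb were kept only through the wild-type groups, and Cd48 and Vav1 only through treated wild-type cells. Cd84 and Clec4n were kept only through the groups given 5 µM of the drug, in both lines. A difference between those groups and the others was therefore in part fixed by the threshold.

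The series compared conditional Dicer knockout MEF (CDKO), in which the enzyme that releases mature microRNAs from their hairpins can be deleted, with MEF titled wild type (WT). The groups were untreated CDKO cells, CDKO cells given 1 µM and CDKO cells given 5 µM of 4-hydroxytamoxifen (OHT), WT cells given 5 µM, and untreated WT cells, with treatment lasting 4 days and 2 Affymetrix arrays in each of the 5 groups. OHT binds the estrogen receptor and is commonly used to switch on Cre recombinases joined to that receptor's hormone-binding domain. The source names say tamoxifen where the treatment text says 4-hydroxytamoxifen, and the description of every sample says conditional Dicer knockout, also of those titled WT. The strain, the Cre transgene, the promoter that drives it and the number of embryos behind a culture are not given in the labels used here, nor do these say whether replicate arrays stand for separate cultures. The p values therefore measure the spread between these arrays, which may be technical.

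Macrophages arise from yolk-sac, liver and bone marrow precursors under the control of the transcription factor PU.1, the product of Spi1, and depend for survival on the receptor CSF1R, whose ligand CSF1 is made by fibroblasts and other stromal cells. They carry Fc receptors that bind antibody-coated particles and signal through adaptors with an immunoreceptor tyrosine-based activation motif (ITAM). They also secrete the complement component C1q, and digest what they take up with lysozyme, cathepsins and the phagocyte NADPH oxidase. Cultures grown out of whole embryos can hold such cells beside fibroblasts.

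All values below are log2 levels as deposited, made with GCRMA, a method that corrects a probe's brightness for background by its base composition. Values under about 4 lay near the background of these arrays, whose medians over all probe sets were 3.03 to 3.16, so a change that starts or ends there is not a ratio of transcript amounts. A log2 level of one probe set is not comparable with that of another, and each gene is compared only with itself. In RNA from a whole culture, fewer cells of a type and less RNA per cell cannot be told apart. A change is called where the adjusted p of limma (Benjamini-Hochberg over 20681 probe sets) is under 0.05, and errors of changes are standard errors (SE) of that fit. Counts of members with an unadjusted p under 0.05 are descriptions only. The share of all genes at that cutoff was not computed, and the shares given are of genes called.

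The arrays were not alike in quality. The mean of 9 hybridisation spike-in probe sets fell into a lower class of 9.08 to 9.67 in 4 CDKO arrays (untreated replicate 2, both at 1 µM, and 5 µM replicate 2), and into a higher class of 10.53 to 11.31 in the other 6. The probe sets for 18S ribosomal RNA averaged 11.64 and 11.21 in untreated WT cells and 10.16 in CDKO 1 µM replicate 2, against 5.21 to 8.44 in the 7 other arrays. Dicer1 was covered by 2 probe sets, which ran from 5.40 to 8.30 and from 5.49 to 6.55 in CDKO arrays, against 7.19 to 9.10 and 5.90 to 7.31 in WT arrays. Whether these probes lie in the deleted part is not known here, so they do not check the deletion.

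The arrays carried both fibroblast and macrophage markers. All 14 fibroblast markers listed were measured above the threshold, among them the collagen genes Col1a1 and Col3a1, with a summed linear level, on the log2 scale, of 17.28 to 17.61 in untreated CDKO cells, 17.63 to 17.78 at 1 µM and 16.74 to 17.54 at 5 µM, against 17.26 to 17.27 in WT cells at 5 µM and 17.64 to 17.66 in untreated WT cells. The 29 macrophage and leukocyte genes summed to 11.26 to 14.36, lowest in CDKO 1 µM replicate 2 and highest in WT 5 µM replicate 1. Markers of other blood cells were mostly near background. A group mean of 4 was reached by 0 of 9 neutrophil markers, 2 of 12 T and NK lymphocyte markers (Cd8a and Zap70), 1 of 7 B lymphocyte markers (Ighm), 1 of 9 mast cell markers (Gata2), 3 of 7 erythroid and megakaryocyte markers (Itga2b, Gp1bb and Ppbp), 2 of 7 osteoclast markers (Acp5 and Ctsk) and 2 of 9 endothelial markers (Emcn and Egfl7). The summed level of the neutrophil markers stayed between 5.52 and 5.63 in all arrays. Itgam and Aif1, which often define macrophages, did not reach the threshold, so the name of the group rests on the other markers.

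**Figure D1:**
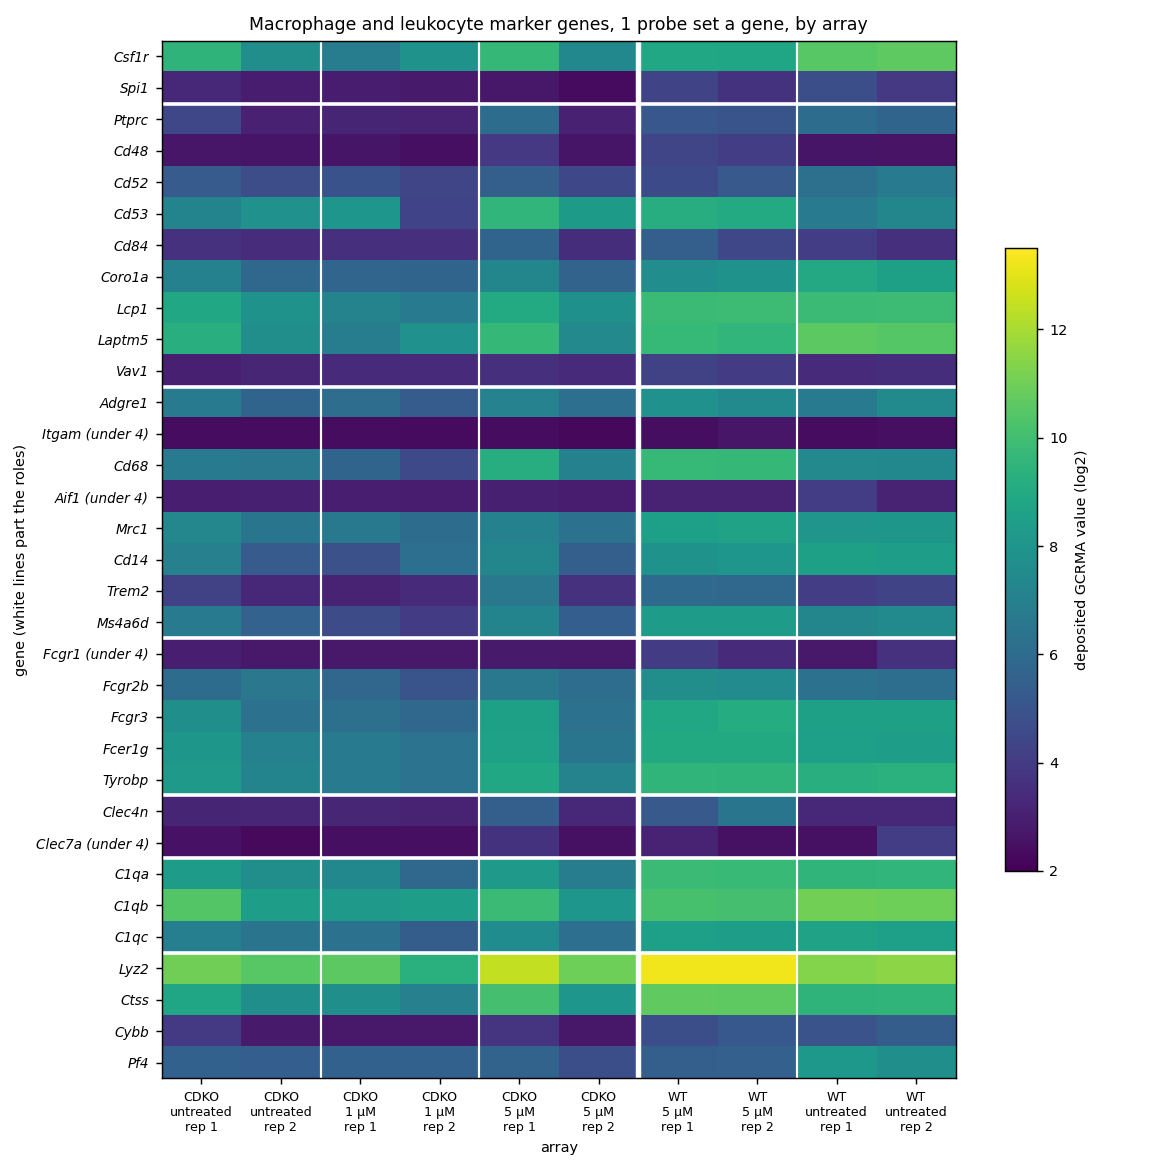
Deposited log2 level of the 33 marker genes with a probe set (rows, in groups by role, 4 of them marked as under 4 in every group) in each of the 10 arrays (columns, CDKO left of the thick line and WT right of it). Rows such as Mrc1, C1qa and Cybb are brighter in all 4 WT arrays than in any CDKO array, and within CDKO cells at 5 µM replicate 1 is brighter than replicate 2 in each of the 29 genes kept.

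Csf1r, the receptor for the growth factor CSF1, and Spi1, which encodes the transcription factor PU.1, define the lineage. Csf1r read 9.46 and 7.66 in untreated CDKO cells, 6.82 and 7.89 at 1 µM and 9.65 and 7.36 at 5 µM, against 8.85 and 8.82 in WT cells at 5 µM and 10.49 and 10.63 in untreated WT cells. Untreated WT arrays were the highest of all, and CDKO arrays spread so widely that 5 µM replicate 1 stood above both WT arrays at 5 µM while replicate 2 stood below them. The Csf1r change was -1.72 ± 0.83 (adjusted p = 0.204) for 5 µM OHT in WT cells and -1.39 ± 0.53 (adjusted p = 0.212) for treated CDKO cells against the 3 control groups, and neither passed. A further probe set for Csf1r fell by 1.57 ± 0.30 in treated CDKO cells against controls (adjusted p = 0.0352), and another stayed between 6.53 and 7.40 in all arrays, so the probe sets of this gene disagreed. Between the untreated lines, CDKO against WT, the further probe set gave -2.49 ± 0.46 (adjusted p = 0.0244) and the one that stands for the gene -2.0 ± 0.83 (adjusted p = 0.188). The third gave -0.68 ± 0.21 (adjusted p = 0.105).

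Spi1 read 3.30 and 2.92 in untreated CDKO cells, 2.86 and 2.85 at 1 µM and 2.73 and 2.36 at 5 µM, against 4.34 and 3.67 in WT cells at 5 µM and 4.78 and 3.91 in untreated WT cells. All 6 CDKO arrays lay below all 4 WT arrays. Treated CDKO cells against the control groups gave -1.12 ± 0.23 (adjusted p = 0.0447). Because only the WT groups brought Spi1 over the threshold, this call is given as a description, and with no filter the adjusted p was 0.108. Between the untreated lines, CDKO against WT, Spi1 differed by -1.23 ± 0.36 (adjusted p = 0.0891), which did not pass. CDKO cells at 5 µM differed from untreated CDKO cells by -0.57 ± 0.36 (adjusted p = 0.78).

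PU.1 is known to bind the PU box, GAGGAA, close to the start of many macrophage genes that lack a TATA box. A start-site table of RefSeq (GRCm38.p6) held 24 of the 34 genes, and the letters GAGGAA stood on either strand in the 250 bases before the start of 16 of these 24 (66.7%), against 6252 of 27025 genes in the table (23.1%). Among the 20 that were kept on the arrays the share was 60.0%. TATAAA stood in 12.5% of the 24 and in 13.0% of all genes, each motif being counted on both strands whether or not it overlapped the other. Of the 8 genes called lower in treated CDKO cells, 5 had an entry and 3 held the box. These 3 are printed because they were called in that comparison and hold the letters, 5′ to 3′ up to the base before the start, in lower case with each box in capitals.
Mrc1: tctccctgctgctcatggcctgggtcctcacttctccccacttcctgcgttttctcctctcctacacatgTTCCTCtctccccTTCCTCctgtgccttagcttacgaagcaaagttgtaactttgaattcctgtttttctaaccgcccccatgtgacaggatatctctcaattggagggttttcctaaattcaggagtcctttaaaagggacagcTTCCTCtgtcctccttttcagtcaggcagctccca
C1qc: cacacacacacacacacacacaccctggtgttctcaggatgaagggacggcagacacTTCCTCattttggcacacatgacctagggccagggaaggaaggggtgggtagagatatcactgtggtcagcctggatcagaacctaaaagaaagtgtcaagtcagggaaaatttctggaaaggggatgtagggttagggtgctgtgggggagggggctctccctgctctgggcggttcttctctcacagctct
Pf4: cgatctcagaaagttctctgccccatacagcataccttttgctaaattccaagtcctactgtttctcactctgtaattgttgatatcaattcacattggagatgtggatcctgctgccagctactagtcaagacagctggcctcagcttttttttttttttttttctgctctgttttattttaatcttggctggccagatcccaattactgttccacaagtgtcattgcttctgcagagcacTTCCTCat

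The Mrc1 window is chr2:14229164-14229413 on the plus strand, with 3 boxes that begin 180, 167 and 35 bases before the start. The C1qc window is chr4:136892915-136893164 on the minus strand, with 1 box 193 bases before the start, and the Pf4 window is chr5:90772185-90772434 on the plus strand, with 1 box 8 bases before it. In all 3 genes the box reads TTCCTC on the printed strand, that is, GAGGAA on the other. A match to these letters is a description and not a binding site, and the letters are short enough to stand in many promoters. Ptprc, Cd53, Laptm5, Vav1, Cd68, Trem2, Fcgr3, C1qb and Ctss are further genes kept on the arrays that held it, and Lcp1 and Cybb, both called lower in treated CDKO cells, did not hold it in this window.

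Among genes expressed across leukocytes, Ptprc encodes the receptor phosphatase CD45. Ptprc read 4.44 and 3.06 in untreated CDKO cells, 3.19 and 3.15 at 1 µM and 6.08 and 3.04 at 5 µM, against 5.12 and 5.0 in WT cells at 5 µM and 6.05 and 5.70 in untreated WT cells. The 4 CDKO arrays of the lower spike-in class were near background, while CDKO 5 µM replicate 1 was the highest array of all. The 2 arrays at 5 µM therefore differed by 3.04, and no Ptprc comparison passed (the smallest adjusted p was 0.193, for CDKO against WT untreated). Coro1a encodes coronin, an actin-binding protein of leukocytes, and Lcp1 encodes the actin bundler L-plastin. Coro1a stood at 7.05 and 5.83 in untreated CDKO cells, 5.75 and 5.71 at 1 µM and 7.26 and 5.67 at 5 µM, against 7.64 and 7.92 in WT cells at 5 µM and 8.96 and 8.52 in untreated WT cells. Lcp1 stood at 8.85 and 7.84 in untreated CDKO cells, 7.13 and 6.80 at 1 µM and 9.02 and 7.77 at 5 µM, against 9.86 and 9.87 in WT cells at 5 µM and 9.83 and 9.88 in untreated WT cells. By these probe sets all CDKO arrays lay below all WT arrays for both genes. A second Coro1a probe set read 7.32 in untreated CDKO replicate 1, above the 6.97 and 7.12 of WT cells at 5 µM. In treated CDKO cells against the controls Lcp1 fell by 1.67 ± 0.30 (adjusted p = 0.0287), and Coro1a differed by -1.55 ± 0.36 (adjusted p = 0.0637), which did not pass. By the Lcp1 probe set given here the 1 µM arrays were the lowest 2 of the 10. A second Lcp1 probe set gave -1.79 ± 0.47 (adjusted p = 0.0872) in treated CDKO cells against the controls, which did not pass.

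Cd48 encodes a ligand of the lymphocyte receptor CD244, Cd52 a small glycoprotein of leukocytes, and Vav1 a signalling protein of blood cells. Cd48 read 2.69 and 2.65 in untreated CDKO cells, 2.66 and 2.45 at 1 µM and 3.92 and 2.63 at 5 µM, against 4.42 and 4.07 in WT cells at 5 µM and 2.64 and 2.62 in untreated WT cells. Only the WT arrays at 5 µM passed 4, and CDKO 5 µM replicate 1 came next. The change of Cd48 with 5 µM OHT in WT cells was 1.62 ± 0.39 (adjusted p = 0.0455), in the only group that brought it over the threshold, and with no filter the adjusted p was 0.112. Cd52 read 5.31 and 4.70 in untreated CDKO cells, 4.88 and 4.38 at 1 µM and 5.49 and 4.51 at 5 µM, against 4.58 and 5.22 in WT cells at 5 µM and 6.22 and 6.79 in untreated WT cells. Cd52 was highest in untreated WT cells and differed by -1.61 ± 0.43 (adjusted p = 0.0583) with OHT in WT cells, which did not pass. Vav1 read 3.0 and 3.25 in untreated CDKO cells, 3.39 and 3.41 at 1 µM and 3.54 and 3.41 at 5 µM, against 4.26 and 4.06 in WT cells at 5 µM and 3.41 and 3.48 in untreated WT cells. Vav1 passed 4 only in WT cells at 5 µM, where the change was 0.71 ± 0.19 (adjusted p = 0.0599). With no filter its adjusted p was 0.0315. Of the other genes, the tetraspanin gene Cd53 ran from 4.31 to 9.57, Cd84, a self-binding receptor of the SLAM family, from 3.48 to 5.71, and Laptm5, a lysosomal membrane protein of blood cells, from 6.84 to 10.62. The largest gap between 2 arrays of a group was that of Cd53 at 1 µM, 3.71, with replicate 2 the lower, and none of these 3 genes passed a test. A second Laptm5 probe set fell by 1.30 ± 0.18 in treated CDKO cells against controls (adjusted p = 0.014), where the one with the highest mean gave -1.61 ± 0.49 (adjusted p = 0.13). Between the untreated lines, CDKO against WT, it gave -1.61 ± 0.28 (adjusted p = 0.0206).

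The surface markers of macrophages varied in their response. Adgre1 encodes an adhesion receptor long used to stain macrophages and Cd68 encodes macrosialin, a lysosomal glycoprotein. Adgre1 read 6.77 and 5.72 in untreated CDKO cells, 6.12 and 5.36 at 1 µM and 7.10 and 6.18 at 5 µM, against 7.82 and 7.46 in WT cells at 5 µM and 6.68 and 7.49 in untreated WT cells. For Adgre1 the 3 highest arrays were WT, and CDKO 5 µM replicate 1 came next. Cd68 read 6.75 and 6.59 in untreated CDKO cells, 5.73 and 4.52 at 1 µM and 9.15 and 7.05 at 5 µM, against 9.69 and 9.64 in WT cells at 5 µM and 7.41 and 7.38 in untreated WT cells. For Cd68 the 2 WT arrays at 5 µM were the highest and lay within 0.052 of each other, and the 1 µM CDKO arrays were the lowest. Its change was 2.27 ± 0.65 (adjusted p = 0.0688) in WT cells and 1.44 ± 0.65 (adjusted p = 0.601) at 5 µM in CDKO cells, and neither passed. Itgam, the alpha chain of the integrin MAC-1, stayed at 2.25 to 2.68 in all arrays, which is background. Aif1, the calcium-binding protein IBA1, read 4.08 and 3.16 in untreated WT cells and lay between 2.89 and 3.14 in the 8 other arrays.

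Mrc1 encodes the mannose receptor, and Ms4a6d encodes a membrane protein found in macrophages. Mrc1 read 7.31 and 6.48 in untreated CDKO cells, 6.65 and 6.05 at 1 µM and 7.04 and 6.34 at 5 µM, against 8.50 and 8.60 in WT cells at 5 µM and 8.0 and 8.07 in untreated WT cells. Ms4a6d read 6.68 and 5.62 in untreated CDKO cells, 4.62 and 3.98 at 1 µM and 7.19 and 5.44 at 5 µM, against 8.31 and 8.29 in WT cells at 5 µM and 7.26 and 7.52 in untreated WT cells. By these probe sets every CDKO array lay below every WT array for both genes, and CDKO arrays at 1 µM were the lowest 2 for Ms4a6d. In treated CDKO cells against controls Mrc1 fell by 1.31 ± 0.24 (adjusted p = 0.0306) and Ms4a6d fell by 1.97 ± 0.38 (adjusted p = 0.0356). A second Ms4a6d probe set disagreed, with 6.17 in untreated CDKO replicate 1 and 6.93 in CDKO 5 µM replicate 1. It read 6.08 and 5.94 in untreated WT cells. Its change in treated CDKO cells against controls was -1.74 ± 0.54 (adjusted p = 0.136), which did not pass. Cd14 read 7.0 and 5.29 in untreated CDKO cells, 4.87 and 6.18 at 1 µM and 7.28 and 5.50 at 5 µM, against 7.90 and 8.06 in WT cells at 5 µM and 8.55 and 8.43 in untreated WT cells. Cd14, the co-receptor for bacterial lipopolysaccharide, was again lower in every CDKO array than in any WT array, and its change was -1.58 ± 0.48 (adjusted p = 0.128) in treated CDKO cells and -2.35 ± 0.75 (adjusted p = 0.11) between the untreated lines. Trem2, a lipid-sensing receptor that signals through TYROBP, ran from 3.08 to 6.60 and was highest in CDKO 5 µM replicate 1, above the 5.95 and 5.89 of WT cells at 5 µM.

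The Fc receptors act with adaptors. Tyrobp (DAP12) and Fcer1g (the Fc receptor gamma chain) carry the ITAM through which several of these receptors signal. Tyrobp read 8.22 and 7.20 in untreated CDKO cells, 6.78 and 6.36 at 1 µM and 8.89 and 7.14 at 5 µM, against 9.54 and 9.48 in WT cells at 5 µM and 9.26 and 9.32 in untreated WT cells. Fcer1g read 8.08 and 7.07 in untreated CDKO cells, 6.73 and 6.36 at 1 µM and 8.58 and 6.45 at 5 µM, against 9.01 and 8.99 in WT cells at 5 µM and 8.48 and 8.41 in untreated WT cells. All CDKO arrays lay below all WT arrays for Tyrobp, while for Fcer1g CDKO 5 µM replicate 1 stood above both untreated WT arrays and replicate 2 among the 1 µM arrays. Treated CDKO cells differed from controls by -1.54 ± 0.37 (adjusted p = 0.0662) for Tyrobp and -1.31 ± 0.41 (adjusted p = 0.14) for Fcer1g, neither of which passed. Fcgr3, an activating receptor for IgG, ran from 5.86 to 9.12, and Fcgr1, the high-affinity receptor, stayed at 2.77 to 3.99.

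Fcgr2b encodes the inhibitory receptor for IgG. Fcgr2b read 6.05 and 6.56 in untreated CDKO cells, 5.78 and 5.01 at 1 µM and 6.61 and 6.12 at 5 µM, against 7.70 and 7.55 in WT cells at 5 µM and 6.29 and 6.13 in untreated WT cells. WT cells at 5 µM stood above the 8 other arrays, and the gene rose with OHT in WT cells by 1.41 ± 0.32 (adjusted p = 0.0403). The 4 tested probe sets of Fcgr2b were all higher in WT cells at 5 µM, by 1.41 to 3.28, and only the one given here passed. With no filter its adjusted p was 0.0892. The call was also lost with a trended robust prior, the mean of all probe sets or a replicate block. The C-type lectin receptors bind fungal sugars. Clec4n read 3.20 and 3.24 in untreated CDKO cells, 3.25 and 3.09 at 1 µM and 5.50 and 3.31 at 5 µM, against 5.21 and 6.48 in WT cells at 5 µM and 3.32 and 3.30 in untreated WT cells. By this probe set Clec4n (dectin-2) was near background except in CDKO 5 µM replicate 1 and in WT cells at 5 µM, whose change was 2.53 ± 0.68 (adjusted p = 0.0584). This probe set was kept only through the 5 µM groups, which in part fixed that change. A second tested probe set disagreed, with 2.88 and 2.86 in CDKO cells at 5 µM against 5.24 and 4.61 in WT cells at 5 µM and 4.99 and 4.30 in untreated WT cells. It stayed under 4 in all CDKO arrays, was kept only through the WT groups, which in part fixed its difference from them, and passed as lower in treated CDKO cells against controls, at -1.39 ± 0.24 (adjusted p = 0.0261). It also passed between the untreated lines, at -1.74 ± 0.37 (adjusted p = 0.0371), and between the lines at 5 µM, at -2.05 ± 0.37 (adjusted p = 0.0424). Clec7a (dectin-1) ran from 2.30 to 4.07 and passed 4 only in untreated WT replicate 2.

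C1q, which starts the classical complement pathway, is built from the products of C1qa, C1qb and C1qc. C1qa read 8.34 and 7.67 in untreated CDKO cells, 7.37 and 5.83 at 1 µM and 8.23 and 6.89 at 5 µM, against 9.85 and 9.74 in WT cells at 5 µM and 9.52 and 9.58 in untreated WT cells. C1qb read 10.41 and 8.42 in untreated CDKO cells, 8.20 and 8.46 at 1 µM and 9.86 and 8.03 at 5 µM, against 10.16 and 10.09 in WT cells at 5 µM and 11.05 and 10.96 in untreated WT cells. C1qc read 6.97 and 6.44 in untreated CDKO cells, 6.29 and 5.37 at 1 µM and 7.60 and 6.19 at 5 µM, against 8.49 and 8.45 in WT cells at 5 µM and 8.64 and 8.50 in untreated WT cells. All 3 genes were lower in every CDKO array than in any WT array, except C1qb in untreated CDKO replicate 1, which lay between the WT groups. In treated CDKO cells against controls C1qa fell by 2.04 ± 0.38 (adjusted p = 0.0331), the largest change of the 29 genes, and C1qc fell by 1.55 ± 0.32 (adjusted p = 0.0433). C1qb differed by -1.54 ± 0.47 (adjusted p = 0.127), which did not pass. In WT cells OHT gave 0.25 ± 0.58 (adjusted p = 0.818) for C1qa, -0.10 ± 0.49 (adjusted p = 0.92) for C1qc and -0.88 ± 0.73 (adjusted p = 0.457) for C1qb.

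The effector genes behaved in separate ways. Lyz2 encodes the lysozyme of macrophages. Lyz2 read 11.02 and 10.51 in untreated CDKO cells, 10.61 and 9.28 at 1 µM and 12.43 and 10.96 at 5 µM, against 13.23 and 13.24 in WT cells at 5 µM and 11.38 and 11.52 in untreated WT cells. WT cells at 5 µM were the highest, and the change there was 1.79 ± 0.56 (adjusted p = 0.0838), which did not pass. Lyz1, a near-identical copy of Lyz2, was measured by a probe set of its own and correlated with the markers, so signal from either gene may be shared. Cybb read 3.96 and 2.84 in untreated CDKO cells, 2.79 and 2.78 at 1 µM and 3.80 and 2.76 at 5 µM, against 4.78 and 5.17 in WT cells at 5 µM and 4.93 and 5.40 in untreated WT cells. Cybb, the catalytic subunit of the phagocyte NADPH oxidase, was above 4 in the 4 WT arrays and in no CDKO array, and treated CDKO cells against controls gave -1.48 ± 0.30 (adjusted p = 0.0407). As for Spi1, only the WT groups brought it over the threshold, and with no filter the adjusted p was 0.112. Ctss, the lysosomal protease cathepsin S, ran from 7.01 to 10.71 and was highest in WT cells at 5 µM.

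Pf4, a chemokine of platelets and macrophages, differed from the rest. Pf4 read 5.59 and 5.46 in untreated CDKO cells, 5.56 and 5.57 at 1 µM and 5.64 and 4.77 at 5 µM, against 5.50 and 5.54 in WT cells at 5 µM and 8.14 and 7.74 in untreated WT cells. The 2 untreated WT arrays stood more than 2 units above the 8 others, which lay within 0.87 of each other. With OHT in WT cells Pf4 fell by 2.42 ± 0.30 (adjusted p = 0.00781), and between the untreated lines, CDKO against WT, its change was -2.42 ± 0.30 (adjusted p = 0.00703). Treated CDKO cells against controls gave -0.94 ± 0.20 (adjusted p = 0.0452), where of the control arrays only the 2 untreated WT arrays stood above every treated one. Its response to 5 µM OHT differed between the lines by 2.10 ± 0.43 (adjusted p = 0.132), which did not pass. Ppbp, another platelet chemokine, went the other way in these groups, with 8.75 in untreated CDKO cells against 5.46 in untreated WT cells, and 8.39 in WT cells at 5 µM, where it rose by 2.93 ± 0.71 (adjusted p = 0.0461). With no filter this adjusted p was 0.133. The 18S control was raised in the same 2 untreated WT arrays, and its part in these differences was not tested.

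**Figure D2:**
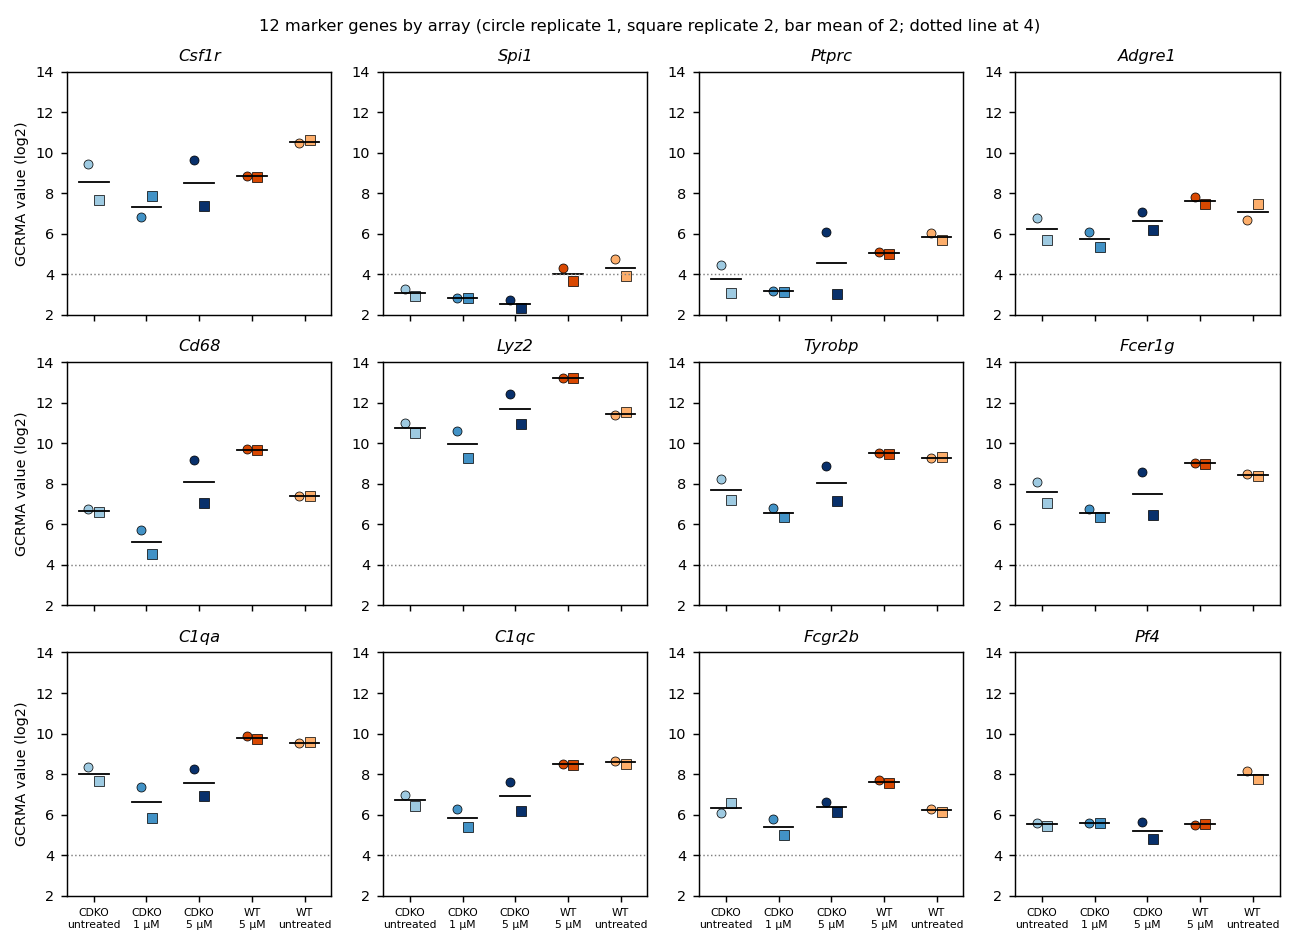
Deposited log2 level (vertical axis) of 12 marker genes in the 5 groups, with a circle for replicate 1, a square for replicate 2, a bar at their mean and a dotted line at the threshold of 4. WT replicates nearly coincide in most panels, CDKO replicates at 5 µM are wide apart, and untreated WT cells are the highest group for Pf4 and Csf1r.

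In the median, the 2 arrays of CDKO cells at 5 µM differed more than those of any other group. All 29 genes were higher in replicate 1, by 1.58 in the median and by up to 3.04 (Ptprc), and 22 exceeded a difference of 1, against 4.74% of all tested genes in that direction. In untreated CDKO cells 25 of 29 were higher in replicate 1, with a median of 0.91, and 14 exceeded 1 (9.28% of all genes). At 1 µM 22 of 29 were higher in replicate 1, with a median of 0.33 beside -0.27 over all genes, and 4 exceeded 1 (3.11% of all genes). In WT cells the medians were 0.047 at 5 µM and 0.0041 untreated. Each of these compares 1 array with 1 array and has no test.

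Among CDKO arrays the level of the markers moved with the spike-in controls. With each gene centred on its mean over the arrays, the median of the 29 genes was 0.00072 in untreated CDKO replicate 1 and 0.67 in 5 µM replicate 1, the CDKO arrays of the higher class. In the 4 arrays of the lower class it was -0.86, -1.08 and -1.31, and -1.02. WT arrays, all of the higher class, stood at 1.19 and 1.17 at 5 µM and 0.92 and 0.92 untreated. The 14 fibroblast markers had a centred median of -1.08 in CDKO 5 µM replicate 1, the lowest of the 10 arrays, and of 0.13 to 0.47 in the 5 other CDKO arrays. In WT cells it was -0.29 and -0.28 at 5 µM and 0.43 and 0.45 untreated. The part of the hybridisation, and of the make-up of the cultures, in the marker levels was not tested.

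**Figure D3:**
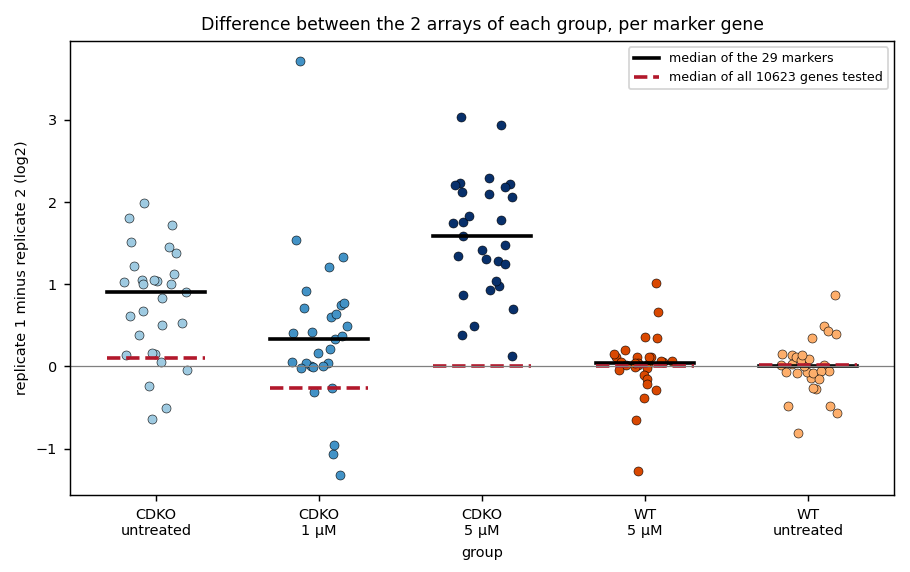
Difference between replicate 1 and replicate 2 (log2) of each of the 29 genes, by group, with a black line at their median and a dashed red line at the median of all 10623 genes tested. The points of CDKO cells at 5 µM all lie above 0 with a median of 1.58, and those of WT cells lie around 0.

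**Figure D4:**
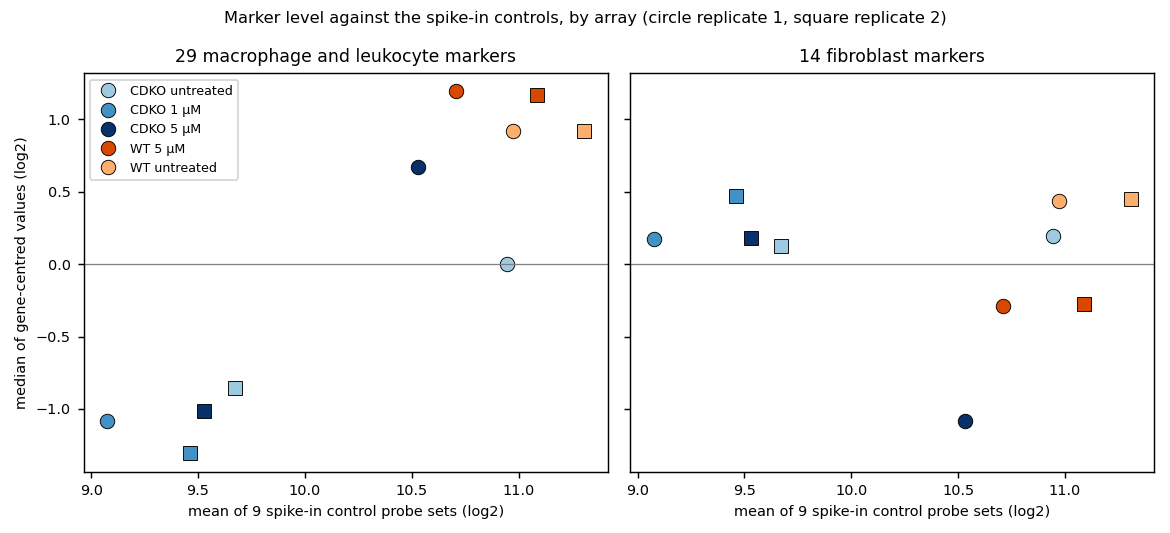
Median of the gene-centred log2 values (vertical axis) of the 29 markers, left, and of 14 fibroblast markers, right, against the mean of 9 spike-in probe sets (horizontal axis, log2), with 1 point for each array. The 4 CDKO arrays with a spike-in mean under 10 have the lowest marker medians, and fibroblast markers are lowest in CDKO 5 µM replicate 1.

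Treated CDKO cells (the mean of the 1 µM and 5 µM groups) were set against the 3 control groups together, the comparison that the design of the series states. All 29 genes had a negative change, with a median of -1.30 beside 0.018 over all genes tested. Treated and control arrays overlapped in 28 of the 29 genes, as they did in 99.1% of all genes, and Spi1 was the exception. In the limma fit 8 were called lower, against 1.3% of all genes, and none was called higher. The 8 were Spi1, Lcp1, Mrc1, Ms4a6d, C1qa, C1qc, Cybb and Pf4, with adjusted p between 0.0287 and 0.0452. An unadjusted p under 0.05 was found for 22 of the 29, with no share of all genes at that cutoff to set beside it. By role, 2 of 3 C1q chains, 2 of 4 effectors, 2 of 6 surface markers, 1 of 9 leukocyte-wide genes and 1 of 2 lineage genes were called, and none of the 4 Fc receptor and adaptor genes. Clec4n, the only lectin receptor kept, was not called by the probe set that stands for it, and second probe sets of Clec4n, Csf1r and Laptm5 passed, as given above. Those of Lcp1 and Ms4a6d did not pass, and both calls were lost with the mean of all probe sets of a gene. Because 2 of the 3 control groups were WT, line and treatment enter this comparison together, and none of the 8 passed against untreated CDKO cells at either dose. The calls rested on single arrays, and were lost without CDKO 5 µM replicate 2 or without any 1 of the 4 WT arrays. The median change was -1.78 without CDKO 5 µM replicate 1 and -0.78 without CDKO 5 µM replicate 2. Spi1 and Cybb were kept only through WT groups, and with no filter none of the 8 was called, where 0.594% of all genes were called lower. In that fit 19 members had an unadjusted p under 0.05. With the spike-in class as a term, the median change was -0.43 and 1 gene was called, where 0.621% of all genes were called lower.

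**Figure D5:**
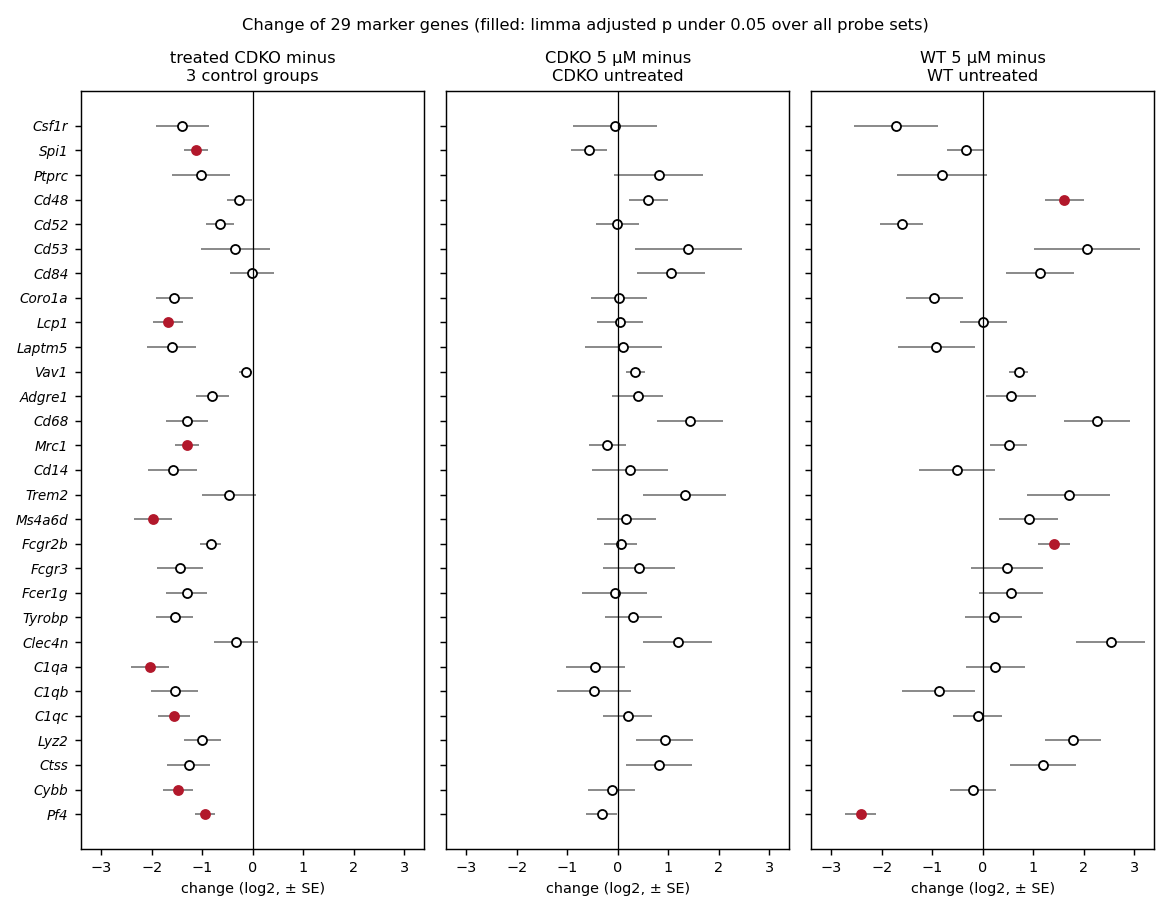
Change (log2, horizontal axis) of the 29 marker genes with its standard error, in treated CDKO cells against the 3 control groups (left), in CDKO cells at 5 µM against untreated (middle) and in WT cells at 5 µM against untreated (right), with filled points where the limma adjusted p is under 0.05. All points of the left panel lie below 0, and those of the right panel spread from -2.42 (Pf4) to 2.53 (Clec4n).

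Within the CDKO line the markers did not pass at either dose. At 1 µM against untreated, 26 of 29 changes were negative with a median of -0.82, and no gene was called (0% of all genes; 5 members had an unadjusted p under 0.05). The largest was Ms4a6d, at -1.85 ± 0.59 (adjusted p = 0.887), followed by Cd68 at -1.54 ± 0.65 (adjusted p = 0.887). Both 1 µM arrays lay below both untreated arrays in 13 of the 29 genes, where 11.2% of all genes did so. Both 1 µM arrays were of the lower spike-in class, as was 1 of the 2 untreated arrays. The 1 µM replicate 2 array also had an 18S mean of 10.16 and the largest difference between 3′ and 5′ Gapdh probes of the 10 arrays, 1.58, against 0.069 and -0.11 in the untreated arrays, and the part of RNA quality was not tested. Without that array no member had an unadjusted p under 0.05. Against that untreated array alone the median was -0.13, the same as without untreated replicate 1.

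At 5 µM against untreated CDKO cells, 20 changes were positive and 9 negative, with a median of 0.20, and none was called by limma (0.141% of all genes were; no member had an unadjusted p under 0.05, and 24 of 29 had overlapping arrays, as 72.4% of all genes did). The largest were Cd68 at 1.44 ± 0.65 (adjusted p = 0.601) and Cd53 at 1.40 ± 1.06 (adjusted p = 0.839). The direction turned with single arrays: the median was -0.57 without 5 µM replicate 1, -0.31 without untreated replicate 2 and 1.04 without 5 µM replicate 2. Within the higher spike-in class, 1 array against 1, it was 0.51 with 24 of 29 positive, and within the lower class it was -0.073 with 18 of 29 negative.

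In the higher class Trem2 differed by 2.34 and Cd68 by 2.41 between 5 µM and untreated CDKO cells, against 0.31 and 0.47 in the lower class. Spi1 differed by -0.57 in the higher class and by -0.56 in the lower, nearly the same in both. These within-class values have 1 array on each side and no test.

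In WT cells, whose replicates lay close together, the markers had changes in both directions. With 5 µM OHT against no treatment, 18 genes had a positive and 11 a negative change, with a median of 0.48 beside -0.093 over all genes. Fcgr2b and Cd48 were called higher (3.45% of all genes were) and Pf4 was called lower (4.73% were), together 3 of 29 where 8.18% of all genes were called. Cd48 was kept only through the treated group. With no filter neither Cd48 (adjusted p = 0.112) nor Fcgr2b (adjusted p = 0.0892) passed. Both treated arrays lay above both untreated arrays in 16 of 29 genes, where 36.7% of all genes did so, and below both in 9, where 46.7% did. Cd48, Vav1, Cd84 and Clec4n, among those above, reached the threshold only in groups given 5 µM, which in part fixed their direction. Among those above were Clec4n (2.53 ± 0.68), Cd68 (2.27 ± 0.65), Cd53 (2.07 ± 1.06), Lyz2 (1.79 ± 0.56), Trem2 (1.70 ± 0.82) and Ctss (1.19 ± 0.65), none of which passed. Among those below were Csf1r (-1.72 ± 0.83), Cd52 (-1.61 ± 0.43), Coro1a (-0.96 ± 0.56), Laptm5 (-0.92 ± 0.76), C1qb (-0.88 ± 0.73) and Ptprc (-0.81 ± 0.89), which did not pass either.

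The fit shares 1 estimate of the spread, and the median SD of the 29 genes was 0.64, 0.29 and 1.1 in CDKO cells untreated, at 1 µM and at 5 µM, against 0.08 and 0.097 in WT cells at 5 µM and untreated. With the 4 WT arrays fitted alone 21 of 29 members were called, 13 higher and 8 lower, where 56.2% of all genes were called in the same fit. With array weights 19 were, 12 higher and 7 lower, where 59.4% of all genes were, while without any 1 of the WT arrays none was. The count was 8 without either 1 µM array (18.9% and 19% of all genes) and 6 without either CDKO 5 µM array (8.2% and 8.21%). Untreated WT cells also had a raised 18S control and a difference between 3′ and 5′ Gapdh probes of 0.89 and 0.67, against -0.10 and -0.10 in WT cells at 5 µM, so RNA quality and treatment cannot be told apart in this comparison.

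The untreated lines were compared next. In untreated CDKO against untreated WT cells, 26 of 29 changes were negative with a median of -1.26, and 1 gene, Pf4, was called lower (2.6% of all genes were, a like share). Second probe sets of Csf1r, Laptm5 and Clec4n passed here too. Untreated WT arrays had the raised 18S and Gapdh values given above, whose part in this comparison was not tested. Both CDKO arrays lay below both WT arrays in 23 of 29 genes, where 31.5% of all genes did so. Cd14 at -2.35 ± 0.75 (adjusted p = 0.11), Coro1a at -2.30 ± 0.56 (adjusted p = 0.0572) and Laptm5 at -2.12 ± 0.76 (adjusted p = 0.143) had changes about as large that did not pass. The Pf4 call was lost without untreated WT replicate 1, and further genes passed without some of the CDKO arrays. The median change was -1.78 without untreated CDKO replicate 1 and -0.73 without untreated CDKO replicate 2. With the replicate block 2 members were called lower, where 1.78% of all genes were. With the spike-in class as a term 4 were, where 5.83% of all genes were called lower, and the median of the members was -0.63.

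At 5 µM OHT in both lines, 28 of 29 changes of CDKO against WT cells were negative with a median of -1.44. None was called by limma (1.45% of all genes were), and 14 had an unadjusted p under 0.05. Both CDKO arrays lay below both WT arrays in 20 genes, where 24.2% of all genes did so. The largest changes were C1qa at -2.24 ± 0.58 (adjusted p = 0.12) and Ms4a6d at -1.98 ± 0.59 (adjusted p = 0.158), and the smallest adjusted p was that of Mrc1, at -1.86 ± 0.37 (adjusted p = 0.0575). The median was -2.20 without CDKO 5 µM replicate 1 and -0.52 without replicate 2, which is also the value within the higher spike-in class, where 21 of 29 were negative. Whether a member was called changed with the array left out. The 2 comparisons of the lines use different arrays.

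The test of the difference between the lines in their response to 5 µM called no member (0.301% of all genes; 3 members had an unadjusted p under 0.05). Its median was -0.16, with 12 positive and 17 negative values. The smallest p values were those of Pf4 at 2.10 ± 0.43 (adjusted p = 0.132), Fcgr2b at -1.35 ± 0.46 (adjusted p = 0.311) and Cd52 at 1.60 ± 0.61 (adjusted p = 0.359). The median was -0.79 without CDKO 5 µM replicate 1 and 0.66 without replicate 2, so its direction rested on single arrays.

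Genes of the same pathways outside the 29 were described from lists drawn up for this comparison. In WT cells at 5 µM against untreated, 3.45% of all genes were called higher and 4.73% lower. There 2 of 9 genes for ITAM, SYK and haematopoietic signalling were called higher, namely Arhgdib by 1.79 ± 0.29 (adjusted p = 0.0162) and Lat2, an adaptor of myeloid and B cells, by 1.45 ± 0.22 (adjusted p = 0.0132). Ncf1, an organising subunit of the NADPH oxidase, differed by 1.91 ± 0.37 (adjusted p = 0.0264), 1 of 3 genes of that complex. Lat2 and Ncf1 were kept only through WT cells at 5 µM, and with no filter their adjusted p was 0.0134 and 0.0649. Among 13 Toll-like and scavenger receptor and lysosome genes, Gpnmb, a glycoprotein of lysosome-rich macrophages, rose by 3.24 ± 0.22 (adjusted p = 8.17e-04), and Ly86, the partner of the receptor RP105, fell by 1.92 ± 0.34 (adjusted p = 0.0194). Ly86 was kept only through untreated WT cells, and its adjusted p with no filter was 0.0474. Of 8 myeloid transcription factors, Runx1 fell by 1.86 ± 0.45 (adjusted p = 0.0468) and Irf5 fell by 1.23 ± 0.18 (adjusted p = 0.0131). With no filter the adjusted p of Runx1 was 0.123, which did not pass. None of 3 growth factor and receptor genes, 7 integrin and chemoattractant receptor genes or 3 antigen presentation genes passed. Csf1, the ligand of CSF1R, averaged 12.43 in WT cells at 5 µM and 12.10 in untreated WT cells, a change of 0.33 ± 0.47 (adjusted p = 0.684).

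In treated CDKO cells against controls, 1.3% of all genes were called lower. Of the 13 Toll-like and scavenger receptor and lysosome genes 2 were lower, the scavenger receptor gene Stab1 at -1.06 ± 0.16 (adjusted p = 0.018) and the endosomal nuclease gene Pld4 at -0.88 ± 0.15 (adjusted p = 0.0284). Pld4 was kept only through the WT groups, with an adjusted p of 0.0409 under no filter. Of 8 transcription factors 1 was lower, Irf5, at -0.59 ± 0.12 (adjusted p = 0.0411). Msr1, another scavenger receptor, had the largest change of its list, at -1.88 ± 0.59 (adjusted p = 0.135), and did not pass. None of the 9 signalling genes, the 3 oxidase genes, the 7 receptor genes, the 3 growth factor genes or the 3 antigen presentation genes passed there. At 5 µM in CDKO cells Gpnmb rose by 2.03 ± 0.22 (adjusted p = 0.0378) against untreated, where 0.141% of all genes were called, and no other gene of these lists passed at either dose. In untreated CDKO against untreated WT cells 7 genes of these lists were called lower, where 2.6% of all genes were. They were 1 of 3 growth factor and receptor genes (Csf2rb), 3 of 8 transcription factors (Cebpa, Irf5 and Runx1), 1 of 9 signalling genes (Ptpn6) and 2 of 13 Toll-like and scavenger receptor and lysosome genes (Ly86 and Stab1). Ptpn6 and Ly86 were kept only through WT groups. Their changes lay between -3.69 (Cebpa, a transcription factor of the granulocyte and macrophage lineages) and -1.22 (Irf5) over the 7 genes. With no filter Csf2rb (adjusted p = 0.132), Cebpa (adjusted p = 0.0673), Runx1 (adjusted p = 0.1) and Ptpn6 (adjusted p = 0.115) did not pass. At 5 µM in both lines Lat2, at -1.17 ± 0.22 (adjusted p = 0.0496), and Pld4, at -1.58 ± 0.24 (adjusted p = 0.0277), were lower in CDKO cells, where 0.584% of all genes were called lower. Lat2 was kept only through WT cells at 5 µM and Pld4 only through the WT groups, so the threshold in part fixed these differences. With no filter their adjusted p was 0.0452 and 0.0356.

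Most of the members varied alike over the arrays. Over the 10 arrays, 396 of 406 pairs of the 29 genes had a positive Pearson r, with a median of 0.757 and a range of -0.265 to 0.991. Tyrobp (r = 0.996) and Fcgr3 (r = 0.994) lay closest to the members' median, and Cd53 (r = 0.48), Pf4 (r = 0.497) and Vav1 (r = 0.591) farthest. The same arrays, hybridisations and groups underlie all of these points, so the values only describe them. The r between pairs of other genes was not computed, so there is no background to set beside these values. Among 10303 other genes, the 15 most like the members' median were Plek (r = 0.99), Pycard, Ncf4, Wfdc17, Rbfox2, Tpmt, Apoe, Adam8, Map3k12, Itgb2, Tlr13, Dhx36, Gdap10, Lyz1 and Lysmd3 (r = 0.943). Plek encodes pleckstrin, Pycard the inflammasome adaptor ASC, Ncf4 an oxidase subunit and Itgb2 the beta chain of the leukocyte integrins. Rbfox2, a splicing factor, and Dhx36, a helicase, are broadly expressed genes.

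Plek averaged 6.62 in untreated CDKO cells, 5.25 at 1 µM and 7.05 at 5 µM, against 9.14 in WT cells at 5 µM and 8.25 in untreated WT cells. Apoe, which encodes a lipoprotein abundant in macrophages, averaged 7.20, 6.13 and 8.13 in the same 3 CDKO groups, against 10.16 and 9.40 in WT cells at 5 µM and untreated. Rbfox2 had 9.86, 9.54 and 10.09 in CDKO cells, against 11.50 and 11.50 in WT cells at 5 µM and untreated. The CDKO means at 1 µM were the lowest in all 3.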

How the data were processed

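RNA of the 10 MEF samples had been extracted with Trizol and hybridised to Affymetrix arrays. The authors deposited log2 values. Per the submitters' processing notes these came from GCRMA, with no version given. That the scale is log2 was read from the values, which ran from 1.09 to 16.0. Groups were taken from the sample titles. Probe sets were named from the platform annotation that accompanies the arrays (34958 of 45101 with 1 gene symbol, 932 with several and 9160 with none), and 64 control probe sets were left out. No probe set was renormalised.

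Probe sets whose highest group mean reached 4 were fitted with limma 3.58.1 in R 4.3.3 (lmFit with a mean for each of the 5 groups, then eBayes, leaving 5 residual degrees of freedom), which gave 7 comparisons, each adjusted by Benjamini-Hochberg over all 20681 probe sets. The procedure was tested on simulated data in which a gene had the same spread in every group. The spread of these arrays differed between the lines, and that test does not cover this. Alternatives were no filter, a trended robust prior, median centring, quantile normalisation, 1 probe set per gene, the mean of all probe sets of a gene, array weights, a replicate block, the spike-in class as a term, the compared groups alone and each array left out. The number of arrays, 2 in a group, limits the precision. All listed genes are named. Values by array are given for the lineage, pan-leukocyte, surface, C1q and adaptor genes that define the cell type and for the 12 others with the smallest p values, and ranges for the rest. From the pathway lists, up to 4 genes with the largest change in a comparison could be named. Of the other genes, the 15 whose mean-centred values correlated best with the members' median are named. The genes and lists were chosen with earlier results of these data known. Promoter windows came from RefSeq on GRCm38.p6, and 10 of the 34 genes had no entry there. No coordinates are given for probe sets, since the build behind them was not stated.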

Additional observations from a re-analysis of the deposited data

Results flagged for a closer look

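In the 4 treated CDKO arrays and in the 6 control arrays, a value was picked out where its gap to the nearest other array was large against the range of the group by Dixon's criterion. Of 60 sets of values, 12 were picked out. Each set pools different groups and the sets share arrays, so no rate expected by chance can be set beside this count. The array CDKO 5 µM replicate 1 accounted for 10 of the 12, and was in each the highest of the 4 treated CDKO arrays. They were Ptprc at 6.08, Cd48 at 3.92, Cd84 at 5.71, Coro1a at 7.26, Vav1 at 3.54, Trem2 at 6.60, Fcer1g at 8.58, Clec4n at 5.50 and Cybb at 3.80, all log2 levels, and the median of the 29 gene-centred values at 0.67. That array also had the highest spike-in mean of the 4 (10.53) and the lowest median of fibroblast markers of all 10 arrays (-1.08). The part of either in the marker levels was not tested.

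Pf4 was picked out for its low level of 4.77 in CDKO 5 µM replicate 2, against 5.64 in replicate 1 and 5.56 and 5.57 at 1 µM. C1qb was picked out at 8.42 in untreated CDKO replicate 2, the lowest of the 6 control arrays, of which the next lowest was 10.09. The 12 sets share arrays and are not independent of each other.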

How the results depend on the processing

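The number of the 29 genes called in treated CDKO cells against controls (8) was 0 with no filter and 0 with array weights (19 had an unadjusted p under 0.05 in each), 5 with quantile normalisation, 4 with 1 probe set per gene, 1 with the spike-in class as a term, and 6 or 7 with a trended robust prior, median centring, the mean of all probe sets, the replicate block and the crossed replicate block. Under these fits 0.226% (array weights) to 2.51% (median centring) of all genes were called in either direction. The count ran from 0 to 14 when single arrays were left out. In WT cells at 5 µM against untreated (3) the count was 19 with array weights (59.4% of all genes), 10 with the spike-in class (13.6%) and 21 with the compared groups alone (56.2%). It was 2 with no filter, where Cd48 and Fcgr2b were lost and Vav1 was called (adjusted p = 0.0315). A trended robust prior, the mean of all probe sets or the replicate block also gave 2, each losing Fcgr2b. The other fits gave 3 (3.29% to 9.33% of all genes in these fits and those that gave 2). The trended robust prior also lost Pf4 in treated CDKO cells. In WT cells the calls were lost without any 1 of the WT arrays. In CDKO against WT untreated (1) the count was 2 with median centring, 5 with array weights, 2 with the replicate block, 4 with the spike-in class and 3 with the crossed replicate block (3.06% to 9.88% of all genes in these fits). The Pf4 call was lost there without untreated WT replicate 1. In CDKO against WT at 5 µM (0) the count was 2 with array weights (1.87% of all genes) and 1 with the spike-in class (4.59%). Whether a member was called there changed with the array left out, and also for both doses in CDKO cells and for the difference between the lines. The cause was not tested, except that fits without an array, or of the compared groups alone, hold fewer samples, and no filter adds probe sets to the adjustment.

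The median change of the 29 genes with the spike-in class as a term was -0.43 in treated CDKO cells against controls, -0.10 for 1 µM in CDKO cells, -0.63 for CDKO against WT untreated and -0.71 for the lines at 5 µM. The median for 5 µM in CDKO cells turned negative, to -0.31 without untreated CDKO replicate 2 and -0.57 without CDKO 5 µM replicate 1, and ran from -0.57 to 1.04 without single arrays. That of the difference between the lines turned positive, to 0.15 without untreated CDKO replicate 1 and 0.66 without CDKO 5 µM replicate 2, and ran from -0.79 to 0.66. The other medians kept their sign without single arrays, at -1.78 to -0.78 for treated CDKO cells against controls, -1.18 to -0.13 for 1 µM, 0.22 to 0.48 in WT cells, -1.78 to -0.73 for CDKO against WT untreated and -2.20 to -0.52 at 5 µM.

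Replicate numbers were not treated as pairs, because the differences between replicates correlated at 0.431 between untreated CDKO cells and CDKO cells at 5 µM, at -0.453 between untreated CDKO cells and those at 1 µM, and at -0.249 to 0.101 in the other pairs of groups. The crossed block, with the 1 µM replicates exchanged, was chosen after seeing the data. The treated CDKO comparison uses all 5 groups and had no fit of the compared groups alone. With the mean of all probe sets of a gene Cybb was below the threshold. Genes near 4, such as Spi1, Cd48, Vav1 and Cybb, lay close to background, which limits what their changes show.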
